A study of Mus musculus with 50 samples.

Results

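Wild-type mouse embryonic stem (ES) cells that had been differentiated for 14 days were compared here with wild-type mouse embryonic fibroblasts (MEF), gene by gene. The comparison holds 3 libraries of poly(A) RNA, 2 from ES cells and 1 from MEF, out of 8 RNA-seq libraries with count tables and 50 samples in the series. They were chosen by their labels alone, as the wild-type libraries of both cell types, and every one of the 24391 genes in the tables was considered. The series itself is about Repeat B of Xist, the RNA that silences one X chromosome in female cells, and its other RNA-seq libraries carry a deletion of that repeat.

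Both cell types carry the label CAST/Ei x 129/Sv/Jae for strain and a wild-type genotype. The ES cells spent 3 days on irradiated MEF feeders with LIF, a cytokine that keeps ES cells undifferentiated. They were then freed of feeders, grown for 4 days in suspension as embryoid bodies and for 10 more days attached to gelatin, without LIF, in medium with 15% serum. The MEF were grown in fibroblast medium with 10% serum. Passage, number of embryos, clone and whether the MEF were primary or immortalised are not given in the sources used here. Nothing states that the 2 ES libraries came from separate cultures, so p-values measure the spread between libraries, which may be technical.

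Embryoid bodies are clumps of ES cells that form derivatives of the germ layers side by side, without the spatial plan of an embryo. Serum cultures of them are known for beating heart muscle, yolk sac-like endoderm, vessels and blood cells. MEF are connective tissue cells taken from the body of a midgestation embryo, known for collagen-rich matrix and for keeping the Hox code of the body region they came from. A bulk library mixes all cells of a culture, and so fewer cells of a type and less RNA per cell of that type cannot be told apart in any value below.

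Library totals were 19676395 and 12505962 counts for ES and 12126941 for MEF. Levels are given as CPM, counts divided by the TMM-scaled library total in units of 1000000, with the ES replicate 1 and 2 values in that order. The ES libraries differed from each other by more than sampling noise, with a chi-square of 7.23 per degree of freedom over 14202 genes, and were kept as 2 replicates. In ES cells only 33.1% and 33.3% of autosomal genes with at least 20 allele-specific reads had between 20% and 80% of them from 129, against 95.1% in MEF. The median share of 129 reads on autosomes was 98.7% and 98.7% in ES and 49.2% in MEF, and CAST reads were nearly missing at most autosomal genes of the ES cells. Cell type and strain at those genes cannot be told apart. On chromosome 13 both cell types carried both strains (96.6%, 96.4% and 93.8% of genes in that range). There 13.5% of tested genes were called higher in ES and 6.49% higher in MEF. Chromosomes 9 (88.2% and 88.2% in ES) and 7 (80.4% and 80.5% in ES) had 14.6% and 18.1% called higher in ES. Called higher in MEF were 4.28% and 2.78%. The effect of strain on the calls was not tested.

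A gene was called when its edgeR adjusted p was under 0.05, its levels differed at least 4-fold, the higher cell type had at least 1 CPM and both ES libraries lay on the same side of MEF. The 1 MEF library was assumed to vary like the ES libraries. Of 15692 genes tested, 2448 (15.6%) were called higher in ES and 736 (4.69%) higher in MEF. The median log2 difference over all tested genes was 0.19, with genes at 0 in one cell type set to their bound. Of the genes higher in ES, 981 had no count at all in MEF. Of those higher in MEF, 9 had none in either ES library. A 0 in MEF rested on 1 library of 12126941 counts. A 0 in ES required both libraries, of 19676395 and 12505962 counts, to hold no read. The rule was thus stricter for ES, and 981 and 9 cannot be compared directly. At 1 CPM or more, 2066 genes were reached in ES alone and 361 in MEF alone. With the MEF library labelled as lacking Repeat B in place of the wild-type one, 2290 of the 2448 and 521 of the 736 calls were met again. Where a named gene lost its call with that second MEF library, its level there is given.

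**Figure D1:**
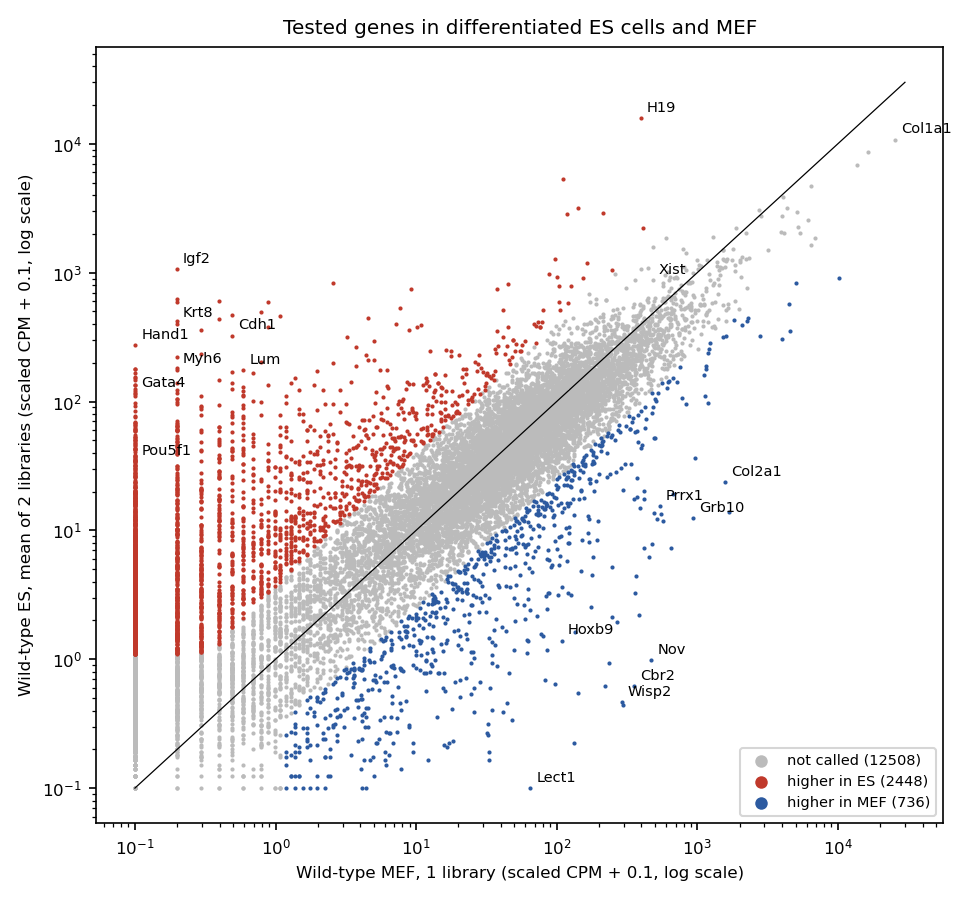
Level of each of 15692 tested genes in MEF (x axis) and in ES cells (y axis, mean of 2 libraries), both as scaled CPM plus 0.1 on log scales, with the line of equality. Genes higher in ES (2448, red) form a column at 0 MEF counts that includes Hand1, Gata4 and Pou5f1. Genes higher in MEF (736, blue) lie mostly above 0 in ES, where a level of 0 requires 0 counts in both libraries.

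Gene lists for 40 lineages and programs were compared with those background shares. Most lists of differentiated lineages other than connective tissue held far more genes higher in ES than 15.6%. The largest shares higher in MEF were in the lists of Hox A and B, cytokines, fibroblast regulators and cartilage. These lists held 12, 8, 13 and 8 of the 736 genes called higher in MEF, so most such genes lay outside them. These are counts, and no test of the lists was made. A gene with 0 counts in wild-type MEF could pass the count filter only through the other libraries, mostly ES. Such genes were 15 of 23 tested macrophage genes and 14 of 15 tested Hox C and D genes. Members low in every library were not tested, so the share of a list depends in part on the filter.

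**Figure D2:**
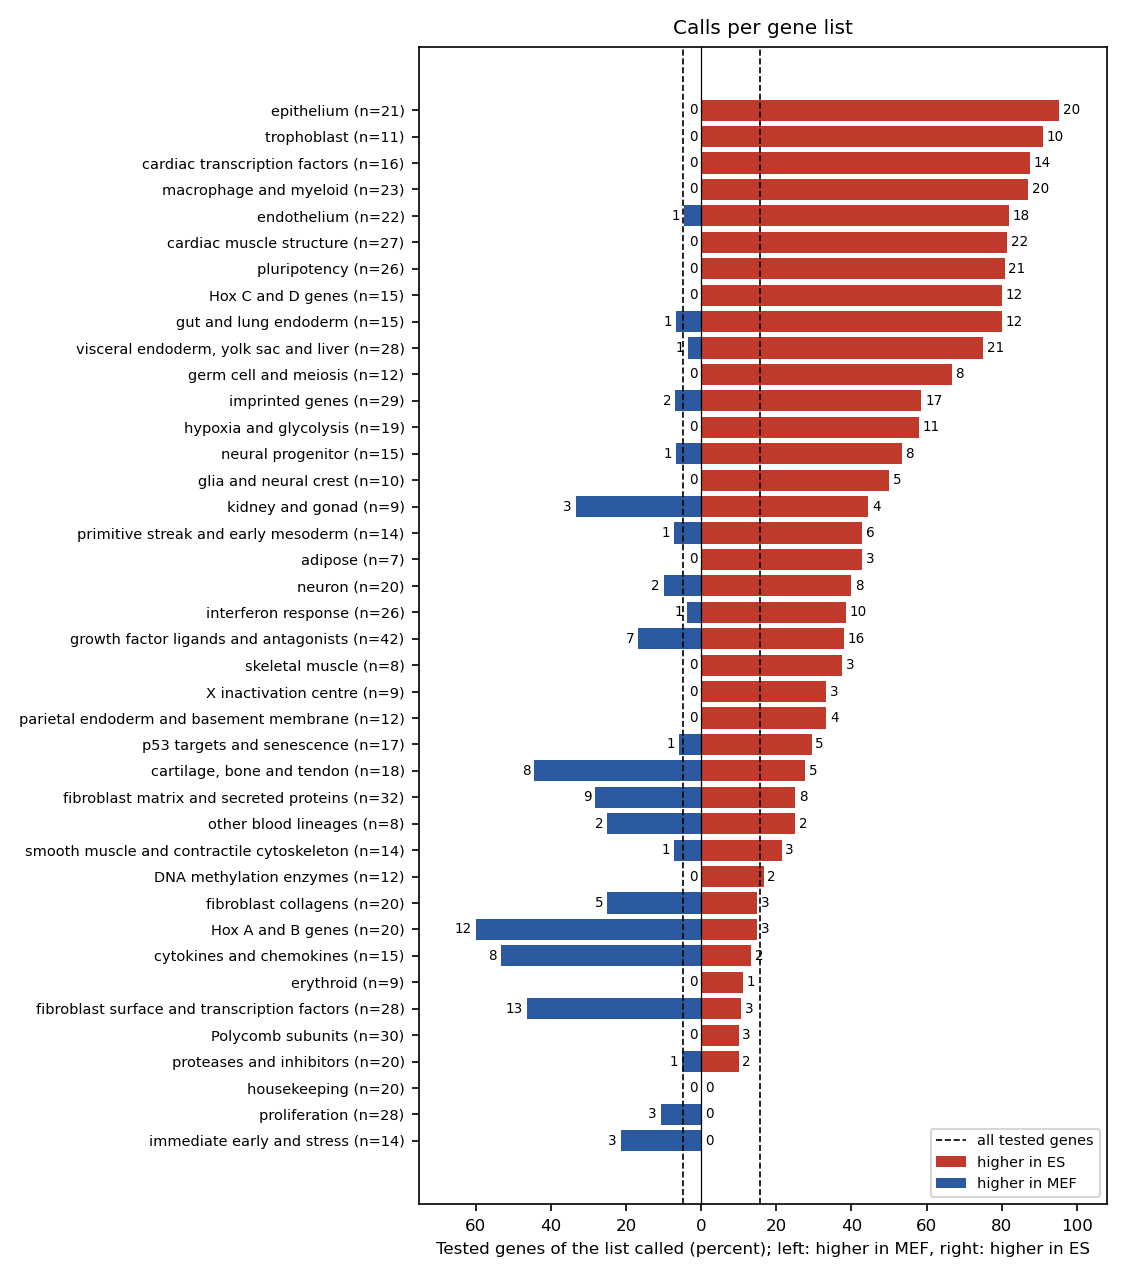
Share of tested genes called higher in ES (red, to the right) and higher in MEF (blue, to the left) in each of 40 lists, in percent, with the number of calls at each bar and dashed lines at the shares over all tested genes, 15.6% and 4.69%. Epithelium leads on the ES side with 20 calls and Hox A and B genes on the MEF side with 12.

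Heart muscle genes were among the clearest features of the ES culture. Of the contractile and sarcomere genes of heart muscle, 22 of 27 were higher in ES and none was higher in MEF, with a median log2 difference of 4.93. Myh6, the fast myosin heavy chain of heart muscle, had 159 and 195 CPM in the ES libraries and 0.0983 CPM in MEF. The 2 ES libraries lay close together and MEF had 1 count, a ratio of 1755 times, with a 95% counting interval of 315 to 69329 (edgeR adjusted p = 9.27e-12). Its slow counterpart Myh7 had 88.1 and 95.1 CPM in the ES libraries and 0.197 CPM in MEF. Cardiac troponin T (Tnnt2) had 53.6 and 66.6 against 0.0983 CPM, and cardiac alpha-actin (Actc1) 96.2 and 90.4 against 0.295 CPM. All 4 genes were thus near 0 in MEF and between 53.6 and 195 CPM in ES. The small heat shock protein Hspb7 had 171 and 168 against 0.393 CPM, and slow skeletal troponin I (Tnni1), which the fetal heart uses, 85.5 and 103 against 0.492 CPM. The ventricular light chain Myl2 had 1.84 and 1.31 against 0 CPM, and the natriuretic peptide Nppa, at 0.598 and 0.736 against 0.0983 CPM, was not called. Myh6 and Myh7 overlap antisense or microRNA genes, whose reads could not be separated.

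Promoters of this list are shown because its members were high together. The CArG box, the site bound by serum response factor, was searched in the 250 bases before each RefSeq start (GRCm38.p6); the box reads the same on both strands. It occurred in 4 of 20 matched genes of the list called higher in ES and in 1 of 6 not called, against 1.39% of 11696 matched tested genes. By promoter, it was in 1.47% of all 32851. The printed windows of Actc1, Myl7 and Myl3 lie at chr2:114052876-114053125 (minus strand), chr11:5898783-5899032 (minus strand) and chr9:110763428-110763677 (plus strand), with the box in capitals; Myl7 and Myl3 were chosen for this match after their values were seen.
Actc1: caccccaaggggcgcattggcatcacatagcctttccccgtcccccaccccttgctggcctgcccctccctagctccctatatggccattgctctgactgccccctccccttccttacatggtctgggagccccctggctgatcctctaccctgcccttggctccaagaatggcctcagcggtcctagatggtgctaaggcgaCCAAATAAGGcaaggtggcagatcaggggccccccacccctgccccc
Myl7: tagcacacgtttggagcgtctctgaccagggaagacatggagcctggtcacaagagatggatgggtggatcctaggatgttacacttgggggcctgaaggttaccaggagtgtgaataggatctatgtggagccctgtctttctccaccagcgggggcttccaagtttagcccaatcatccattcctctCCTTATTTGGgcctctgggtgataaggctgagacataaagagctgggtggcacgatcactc
Myl3: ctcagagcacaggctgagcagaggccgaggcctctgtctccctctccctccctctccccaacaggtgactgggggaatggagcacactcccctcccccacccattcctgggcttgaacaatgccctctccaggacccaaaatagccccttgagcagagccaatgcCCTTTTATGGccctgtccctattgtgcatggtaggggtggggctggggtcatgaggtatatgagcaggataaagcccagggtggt
A match is a description of these letters only. Myl7, an atrial light chain, had 51.1 and 44.8 against 0 CPM, and Myl3, a ventricular light chain, had 15.1 and 15.2 against 0.492 CPM.

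Heart transcription factors were mostly higher in ES. Of this list 14 of 16 were higher in ES, with a median log2 difference of 6.05. Hand1, a basic helix-loop-helix factor of the left ventricle, extraembryonic mesoderm and trophoblast, had 248 and 298 CPM in the ES libraries and 0 CPM in MEF. It was at least 926-fold higher in ES, against a floor of 3 counts in the MEF library (edgeR adjusted p = 5.51e-13), and led the ranking by log2 fold change. Its relative Hand2 had 403 and 444 CPM in the ES libraries and 0.0983 CPM in MEF, a ratio of 4258 times, with a 95% counting interval of 764 to 168191. Gata4, which activates heart and endoderm genes, had 121 and 112 CPM in the ES libraries and 0 CPM in MEF and was at least 396-fold higher. Both ES libraries exceeded MEF for each of these genes. Gata6 had 279 and 251 against 3.64 CPM (log2 fold change 6.19, SE 0.33, edgeR adjusted p = 1.29e-11). Tbx20 had 126 and 123 against 0.393 CPM, Tbx5 17.3 and 18.2 against 0 CPM and Nkx2-5, an early heart marker, 4.33 and 4.83 against 0.0983 CPM. The RepB MEF library had 0 counts for Hand1, Gata4, Tbx5 and Nkx2-5.

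Smooth muscle genes did not follow the heart list. Of 14 tested, 3 were higher in ES and 1 in MEF, with a median log2 difference of -0.69. Acta2, smooth muscle actin, was abundant in both cell types at 2231 and 2302 against 5189 CPM (log2 fold change -1.20, SE 0.22, edgeR adjusted p = 1.35e-04) and missed the 4-fold minimum. Tagln, at 1249 and 1291 against 1618 CPM, was not called either. Desmin (Des), an intermediate filament of all muscle, had 332 and 422 CPM in the ES libraries and 0.787 CPM in MEF (log2 fold change 8.89, SE 0.57, edgeR adjusted p = 1.03e-12). Myh11, the smooth muscle myosin, had 18.7 and 21.5 against 0.885 CPM, and the enteric actin Actg2 606 and 577 against 105 CPM. Synemin (Synm) was higher in MEF, at 4.98 and 5.24 against 25.7 CPM. Cnn1 depended on the MEF library, with 112 CPM in wild-type MEF, 3.51 in RepB MEF and 36.2 and 38.7 in ES. The skeletal muscle regulators Myod1, Myf5 and Myog stayed at or below 0.199 CPM in all 3 wild-type libraries, while the fast troponins Tnnt3 (10.1 and 13.3 against 0.295 CPM) and Tnni2 (8.97 and 8.67 against 0.787 CPM) were called.

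**Figure D3:**
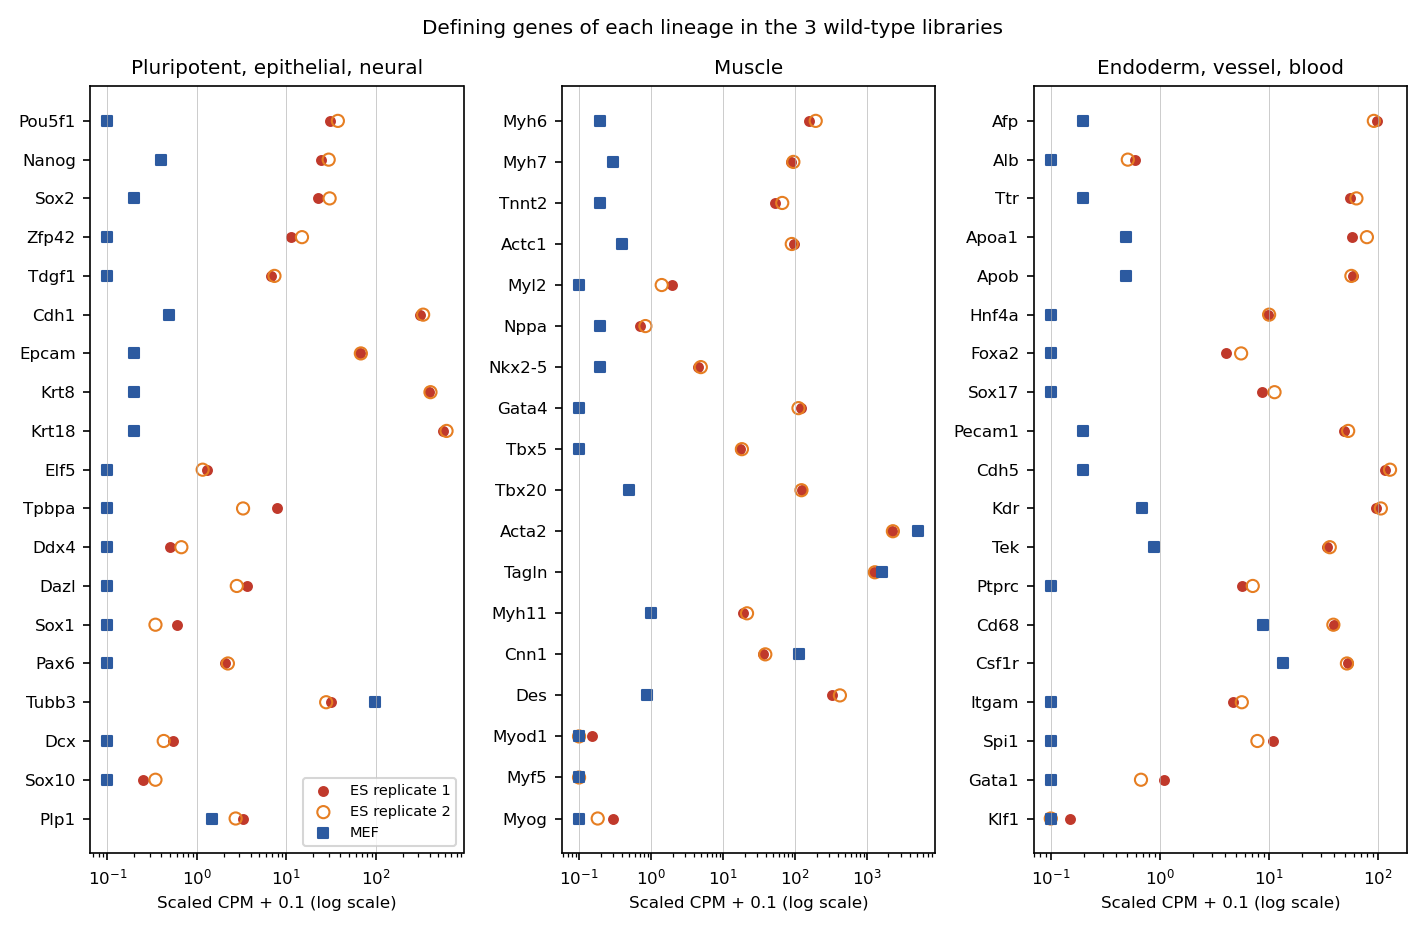
Levels of defining genes of 3 groups of lineages in ES replicate 1 (filled circles), ES replicate 2 (open circles) and MEF (squares), as scaled CPM plus 0.1 on log axes. The ES circles lie close together and far right of the MEF squares for Krt18, Myh6, Gata4, Afp and Cdh5, while Acta2 and Tubb3 lie further right in MEF and Myod1 and Myf5 lie near 0 in all 3 libraries.

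Epithelial genes were present in ES cells and nearly missing in MEF. Of this list 20 of 21 were higher in ES, and the median log2 difference of 7.86 exceeded the 0.19 of all tested genes. E-cadherin (Cdh1), the adhesion protein of epithelia, had 309 and 339 CPM in the ES libraries and 0.393 CPM in MEF (log2 fold change 9.66, SE 0.66, edgeR adjusted p = 1.51e-13). The simple-epithelium keratins Krt8 (396 and 409 against 0.0983 CPM) and Krt18 (567 and 618 against 0.0983 CPM) each had 1 count in MEF. For Krt18 the ratio was 5967 times, with a 95% counting interval of 1071 to 235692. Krt19 had 418 and 464 against 4.42 CPM, and the adhesion molecule Epcam 65.9 and 68.1 against 0.0983 CPM. The summed level of the list was 2822 and 3041 CPM in ES and 142 CPM in MEF. In MEF most of that sum came from Cd24a, which was the 1 gene of the list not called, at 186 and 173 against 130.2 CPM.

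Endoderm of the yolk sac type was also represented. Of the visceral endoderm, yolk sac and liver genes, 21 of 28 were higher in ES and 1 was higher in MEF. Alpha-fetoprotein (Afp), the main serum protein of yolk sac and fetal liver, had 99.1 and 92.1 CPM in the ES libraries and 0.0983 CPM in MEF, with 1 count in MEF. Transthyretin (Ttr) had 55.9 and 63.7 against 0.0983 CPM, and the apolipoproteins Apoa1 and Apob had 57.6 and 79.5 against 0.393 CPM and 59.0 and 57.3 against 0.393 CPM. The endoderm regulators were lower but distinct from MEF, where all 3 had 0 counts: Hnf4a had 9.72 and 9.98 CPM, Sox17 8.57 and 11.2 and Foxa2 3.99 and 5.48. Albumin (Alb), the mark of later hepatocytes, had only 0.498 and 0.409 CPM and was not called. Among gut and lung endoderm genes 12 of 15 were higher in ES. The tight junction genes Cldn6 and Cldn3 had 66.2 and 62.7 against 0.0983 CPM and 34.6 and 37.9 against 0 CPM, the hindgut and trophectoderm factor Cdx2 had 6.53 and 8.26 against 0 CPM, and villin (Vil1) had 3.29 and 4.09 against 0 CPM. Cadherin 17 (Cdh17), an intestinal cadherin, was higher in MEF at a low level, 0.0498 and 0.0818 against 4.62 CPM.

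Basement membrane genes were expressed in both cell types, 12 at 1 CPM or more in ES and 11 in MEF. Of 12 tested, 4 were higher in ES, against 15.6% of all tested genes, and none in MEF. Their median log2 difference was 1.24. Laminin alpha 1 (Lama1), typical of embryonic basement membrane, had 223 and 268 CPM in the ES libraries and 12.4 CPM in MEF (log2 fold change 4.31, SE 0.21, edgeR adjusted p = 3.73e-11). Type IV collagen (Col4a1) had 1928 and 2502 against 408 CPM, and only 9.56 CPM in RepB MEF. Its gene overlaps Col4a2. Nidogen 2 (Nid2) had 1024 and 1077 against 248 CPM, and its call was lost against the 343 CPM of RepB MEF.

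Endothelial genes were mostly higher in ES. Of the endothelial genes 18 of 22 were higher in ES. VE-cadherin (Cdh5), which joins endothelial cells, had 116 and 129.8 CPM in the ES libraries and 0.0983 CPM in MEF, with 1 count in MEF. The VEGF receptor Kdr had 96.4 and 107 against 0.590 CPM, Pecam1 49.3 and 53.5 against 0.0983 CPM and the angiopoietin receptor Tek 34.5 and 36.2 against 0.787 CPM. All 4 were at or below 0.787 CPM in MEF. Flt4, the receptor of lymphatic endothelium, was the exception, at 10.8 and 15.5 against 133 CPM (log2 fold change -3.37, SE 0.21, edgeR adjusted p = 1.99e-10), and had 68.6 CPM in RepB MEF. Flt1 had 55.5 and 65.6 against 10.8 CPM and lost its call against the 16.0 CPM of RepB MEF.

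Macrophage genes were found in the ES culture. Of the macrophage and myeloid list 20 of 23 were higher in ES, 15 of the 23 tested genes having no MEF count. Its summed level was 386 and 352 CPM in ES and 29.5 CPM in MEF. The complement genes C1qb and C1qc, made by tissue macrophages, had 38.5 and 39.8 against 0.0983 CPM and 29.9 and 29.5 against 0 CPM. The common leukocyte antigen Ptprc (5.63 and 7.04 CPM), the myeloid factor Spi1 (10.8 and 7.77 CPM), Itgam (4.58 and 5.56 CPM) and Adgre1, the F4/80 antigen (7.72 and 6.71 CPM), were at 0 counts in both MEF libraries. Csf1r, the receptor for the macrophage growth factor, had 53.1 and 52.1 CPM in the ES libraries and 13.4 CPM in MEF (log2 fold change 1.98, SE 0.20, edgeR adjusted p = 2.53e-07), just under the 4-fold minimum. Red cell genes were scarce: the embryonic globins Hbb-bh1, Hba-x and Hbb-y stayed under 1 CPM in every library, and 1 of 9 tested erythroid genes was called, the regulator Tal1 (2.19 and 2.45 against 0.0983 CPM). Globin genes have close copies, so their counts are uncertain. In the list of other blood lineages, the platelet gene Pf4 was higher in ES (3.74 and 2.95 against 0.295 CPM) and the related chemokine Ppbp higher in MEF (7.08 and 5.15 against 180.1 CPM, log2 fold change -4.85, SE 0.22, edgeR adjusted p = 4.49e-12). Runx1, at 28.3 and 30.4 against 117 CPM, missed the fold minimum.

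Trophoblast genes, whose lineage ES cells rarely enter, were higher in ES for 10 of 11 tested. The list shares Hand1, Cdx2 and the imprinted gene Peg10 with others. Tfap2c, a factor of trophoblast and of germ cells, had 106 and 125 CPM in the ES libraries and 0.0983 CPM in MEF. Keratin 7 (Krt7) had 196 and 212 against 0.688 CPM, while the more restricted Elf5 and Tpbpa reached only 1.20 and 1.06 and 7.77 and 3.19 CPM with 0 counts in MEF. Of germ cell and meiosis genes 8 of 12 were higher in ES. The X-linked homeobox genes Rhox6 and Rhox9 had 115 and 104 and 124 and 128 CPM and no MEF count, Rhox9 being at least 426-fold higher. Dazl, an RNA-binding protein of germ cells, had 3.54 and 2.70 CPM, and Ddx4, a later germ cell gene, 0.399 and 0.573 CPM, which was not called. Rhox genes are a family of close copies, and reads between members may be split.

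Neural genes were called on both sides, in larger number for ES. Of neural progenitor genes 8 of 15 were higher in ES and 1 in MEF, against 15.6% and 4.69% of all tested genes. Their summed level was 126 and 134 CPM in ES and 264 CPM in MEF. Pax6, the regulator of eye and forebrain, had 1.99 and 2.13 against 0 CPM, and Sox1, the earliest neural plate marker, 0.498 and 0.245 against 0 CPM, which was not called. Zic1 was higher in MEF, at 5.33 and 1.72 CPM in the ES libraries and 109 CPM in MEF (log2 fold change -4.84, SE 0.30, edgeR adjusted p = 1.75e-10). Its gene overlaps Zic4. The intermediate filament Nes, also used by mesenchyme, had 69.6 and 73.1 against 149 CPM. Of neuron genes 8 of 20 were higher in ES and 2 in MEF. Gap43 (30.3 and 35.5 against 2.06 CPM) and the neurofilament Nefl (4.14 and 2.54 against 0 CPM) were called for ES, whereas the microtubule protein Map2 was higher in MEF (4.09 and 2.05 against 102 CPM, log2 fold change -4.98, SE 0.25, edgeR adjusted p = 9.91e-12). Dcx and Rbfox3, of young and mature neurons, did not exceed 1.15 CPM in any wild-type library. The neuron genes Tubb3 (log2 fold change -1.70) and Stmn2 (log2 fold change 0.25) were not called. In the glia and neural crest list, Kit (43.2 and 42.5 against 0.393 CPM) and Erbb3 (32.9 and 39.5 against 0.295 CPM) were higher in ES, while Sox10, which defines the crest, was at 0.149 and 0.245 CPM.

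Pluripotency genes were still detected after 14 days. Of this list 21 of 26 were higher in ES, with 15 of the 26 at 0 counts in MEF. Pou5f1 (Oct4), the central pluripotency factor, had 31.0 and 37.6 CPM in the ES libraries and 0 CPM in MEF, at least 116-fold higher. Nanog had 24.6 and 29.7 against 0.295 CPM, Sox2 22.8 and 30.4 against 0.0983 CPM, Zfp42 (Rex1) 11.3 and 14.9 against 0 CPM and the Nodal co-receptor Tdgf1 6.58 and 7.28 against 0 CPM. In each of these genes both ES libraries lay above MEF, and replicate 2 was the higher one. Sall4 had 74.3 and 81.1 against 0 CPM and Utf1 33.8 and 44.6 against 0.0983 CPM. Klf4 and Klf5, which many other cells use, were not called, at 48.6 and 61.6 against 44.7 CPM and 33.6 and 36.7 against 32.8 CPM. Primitive streak genes were mixed. Brachyury (T), Mixl1 and Mesp1 did not exceed 0.149 CPM in any wild-type library, while Eomes and Fgf8 had log2 fold changes of 8.23 and 7.38 toward ES. Of that list 6 of 14 were higher in ES, among them Evx1 (10.1 and 9.90 against 0 CPM), Lefty2 (4.98 and 6.71 against 0 CPM) and Nodal (3.89 and 4.25 against 0 CPM). Lhx1 was higher in MEF, at 0.249 and 0.327 against 41.1 CPM (log2 fold change -7.17, SE 0.68, edgeR adjusted p = 2.83e-10).

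Fibroblast regulators were among the lists with many genes higher in MEF. Of the fibroblast surface and transcription factor genes 13 of 28 were higher in MEF, against 4.69% of all tested genes, and 3 were higher in ES. Prrx1, a homeobox factor of limb and body-wall mesenchyme, had 17.7 and 13.1 CPM in the ES libraries and 541 CPM in MEF (log2 fold change -5.11, SE 0.16, edgeR adjusted p = 1.13e-13). Its relative Prrx2 had 25.1 and 25.5 against 372 CPM, and the collagen receptor Ddr2 34.7 and 30.6 against 336 CPM. Twist1, a factor of mesenchyme, had 18.5 and 14.6 against 71.1 CPM. Every one of these was also higher in RepB MEF. The surface genes were less clear. Pdgfrb had 147 and 155 against 674 CPM and 466 CPM in RepB MEF, where its call was lost; Pdgfra (135 and 127 against 197 CPM), Cd44 (37.1 and 42.0 against 120.1 CPM) and Twist2 (33.5 and 32.1 against 54.5 CPM) were not called. Thy1 had 1.59 and 2.78 against 11.5 CPM but 0 counts in RepB MEF, against which it was higher in ES. On the ES side stood the hindlimb factor Pitx1 (84.6 and 89.9 against 0.197 CPM), Zeb2 (83.1 and 80.9 against 20.1 CPM) and Tcf21 (23.5 and 19.6 against 0 CPM), a factor of visceral and epicardial mesenchyme.

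Collagen genes were strongly used in both cell types. The summed level of the collagen list was 25036 and 31651 CPM in ES and 64860.5 CPM in MEF. Of 20 collagens, 5 were higher in MEF and 3 in ES. Col1a1, a chain of the main fibrillar collagen, had 9143 and 12372 CPM in the ES libraries and 25528 CPM in MEF, Col1a2 6155 and 7490.1 against 13764 CPM and Col3a1 3583 and 4166 against 4090.2 CPM. None of these 3 was called. Col5a2 had 759 and 912 against 5058 CPM, Col12a1 340.0 and 362 against 4565 CPM and Col2a1, the collagen of cartilage, 22.7 and 24.8 against 1565 CPM (log2 fold change -6.05, SE 0.19, edgeR adjusted p = 1.68e-13). Col6a3 had 264 and 303 against 1225 CPM, with 465 CPM in RepB MEF and no call there. Higher in ES were Col18a1 of basement membranes (723 and 865 against 125 CPM), Col14a1 (78.0 and 82.1 against 7.28 CPM) and Col9a1 (5.18 and 5.07 against 0 CPM).

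Matrix and secreted genes split in both directions, 8 of 32 higher in ES and 9 higher in MEF. Thrombospondin 1 (Thbs1) had 855 and 965 CPM in the ES libraries and 10211 CPM in MEF (log2 fold change -3.49, SE 0.23, edgeR adjusted p = 5.87e-10), lysyl oxidase (Lox), which cross-links collagen, 303 and 306 against 4002 CPM, and biglycan (Bgn) 327 and 315 against 2783 CPM. These were called against both MEF libraries, while Loxl1 (376 and 405 against 2084 CPM) lost its call against the 1199 CPM of RepB MEF. Several textbook fibroblast genes had the opposite order. Lumican (Lum), a small proteoglycan, had 194 and 157 CPM in the ES libraries and 0.492 CPM in MEF and 0 counts in RepB MEF (log2 fold change 8.46, SE 0.63, edgeR adjusted p = 8.88e-13). Decorin (Dcn) had 209.7 and 166 against 3.64 CPM, periostin (Postn) 937 and 1008 against 88.6 CPM and Loxl2 1114 and 1265 against 164 CPM. Both ES libraries were above both MEF libraries in all 4. Against the label, Lum and Dcn, which most fibroblasts express, were thus nearly absent from both MEF libraries, whereas type I and III collagen were abundant. Fibronectin (Fn1) was not called, at 7725 and 9569 against 16289 CPM. Among proteases and inhibitors Timp2 was higher in MEF (264 and 246 against 1216 CPM) and Mmp23 in ES (78.3 and 77.6 against 0.393 CPM). Mmp2 (1821 and 1981 against 1296 CPM) and Timp1 (63.2 and 67.7 against 167 CPM) were not called, and Mmp3 was near 0 in every library. Ctsk was called for ES (2.14 and 0.573 against 0.295 CPM) but not against the 0.634 CPM of RepB MEF.

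**Figure D4:**
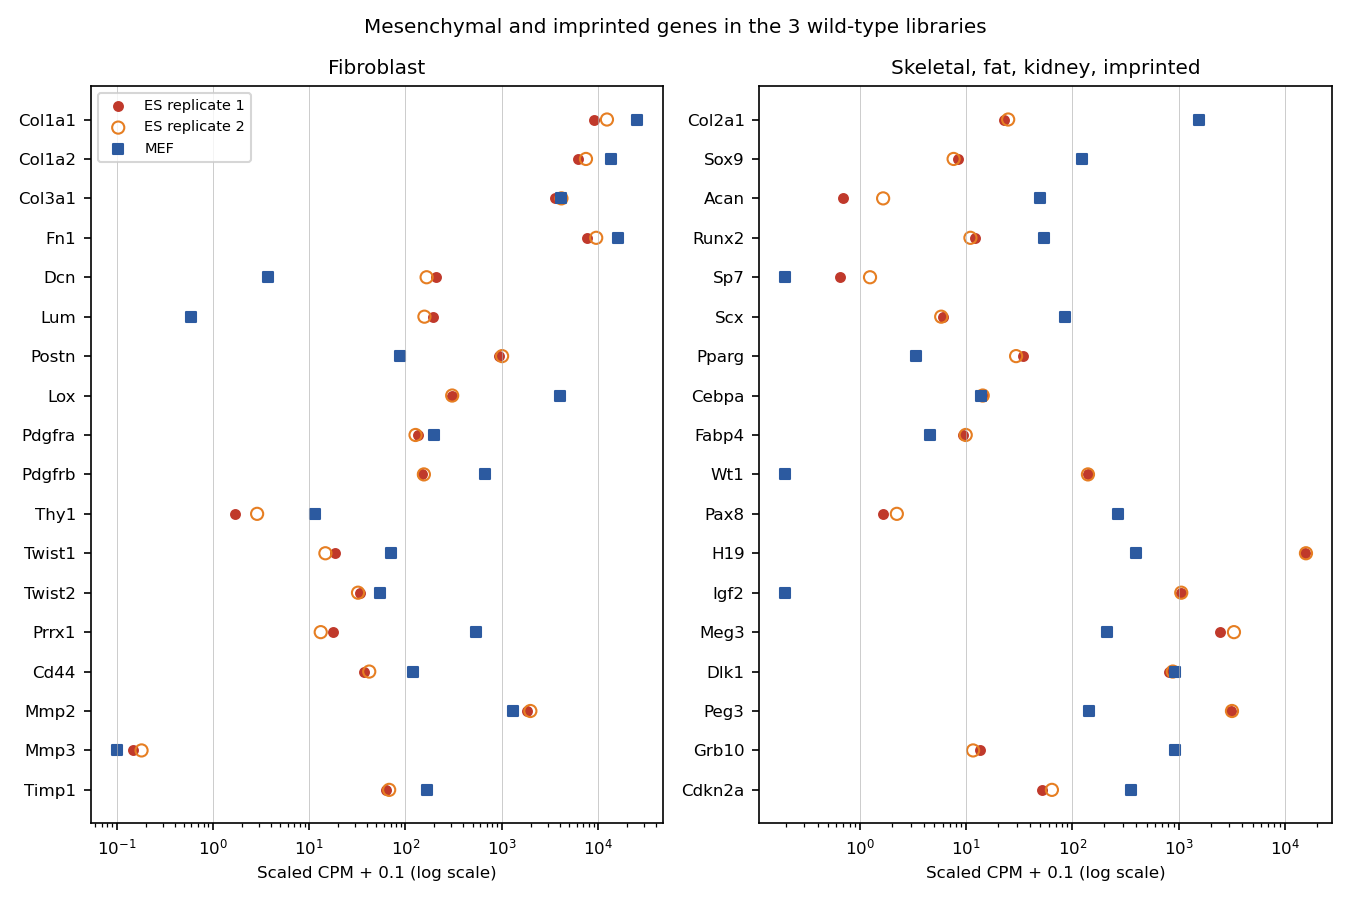
Levels of fibroblast genes (left) and of skeletal, fat, kidney and imprinted genes (right) in ES replicate 1 (filled circles), ES replicate 2 (open circles) and MEF (squares), as scaled CPM plus 0.1 on log axes. Lum, Dcn and Postn lie right in ES, Prrx1 and Lox lie right in MEF, and Wt1 and Igf2 have MEF squares near 0.

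Cartilage and tendon regulators were on the MEF side. Of the cartilage, bone and tendon list 8 of 18 were higher in MEF and 5 in ES. Sox9, the master factor of cartilage, had 8.27 and 7.53 CPM in the ES libraries and 123 CPM in MEF (log2 fold change -3.95, SE 0.18, edgeR adjusted p = 5.75e-12). Its target aggrecan (Acan) had 0.598 and 1.55 against 49.5 CPM, the tendon factor scleraxis (Scx) 5.98 and 5.73 against 85.7 CPM and the bone factor Runx2 11.9 and 10.9 against 53.5 CPM. All 4 were also higher in RepB MEF. Lect1 (chondromodulin), a cartilage protein, had 0 counts in both ES libraries and 64.6 CPM in MEF, at least 327-fold higher in MEF (edgeR adjusted p = 3.15e-11), with 6.68 CPM in RepB MEF. Nkx3-2, a cartilage regulator, had 0.0996 and 0.0818 against 32.8 CPM. Reached mainly in ES were Alpl (154 and 169 against 31.5 CPM), Dlx3 (52.6 and 53.2 against 0 CPM), Msx2 (44.0 and 39.5 against 0.492 CPM) and Sox6 (44.5 and 37.5 against 0.0983 CPM). The bone factor Sp7, at 0.548 and 1.15 against 0.0983 CPM, was not called. In the adipose list lipoprotein lipase (Lpl, 160.5 and 151 against 0 CPM), Pparg (34.3 and 29.5 against 3.24 CPM) and Cd36 (1.35 and 1.39 against 0 CPM) were higher in ES, while Adipoq was at 0 in all 3 libraries and Cebpa was not called at 14.2 and 14.2 against 13.8 CPM.

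Kidney and gonad genes divided by gene. The podocyte and mesothelium gene Wt1 had 139.6 and 140.2 CPM in the ES libraries and 0.0983 CPM in MEF, and Podxl, a surface protein of podocytes, vessels and pluripotent cells, 609.7 and 604 against 0.295 CPM. Sall1 had 48.9 and 50.6 against 0 CPM. Pax8, of the nephric duct and thyroid, had 1.54 and 2.13 against 270.0 CPM (log2 fold change -7.24, SE 0.22, edgeR adjusted p = 1.61e-14), with Osr1 (5.63 and 5.64 against 119 CPM) and Emx2 (2.59 and 4.01 against 22.4 CPM) on the same side. These 3 were called against both MEF libraries. Foxd1, a factor of kidney stroma that ranked among the 12 largest differences, had 0.448 and 1.23 against 234 CPM (log2 fold change -8.27, SE 0.41, edgeR adjusted p = 2.73e-13).

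Hox genes, which encode position along the body axis, separated the cell types by cluster. In clusters A and B 12 of 20 were higher in MEF and 3 in ES, with a median log2 difference of -3.72. In clusters C and D 12 of 15 were higher in ES and none in MEF, with a median of 3.10. Hoxb9 had 1.44 and 1.15 CPM in the ES libraries and 109 CPM in MEF (log2 fold change -6.35, SE 0.25, edgeR adjusted p = 1.67e-13), Hoxb3 5.88 and 4.34 against 90.5 CPM, Hoxb8 1.05 and 1.55 against 61.3 CPM and Hoxa3 2.99 and 2.78 against 49.9 CPM. The posterior genes of cluster A were the ones higher in ES: Hoxa10 (5.63 and 4.09 against 0.197 CPM), Hoxa11 (4.09 and 2.70 against 0 CPM) and Hoxa13 (4.68 and 2.29 against 0 CPM). Hoxa10 lost its call against RepB MEF, which had 5.30 CPM. The 18 genes of clusters C and D together had 1 count in wild-type MEF, in Hoxd8, and 0 in RepB MEF. In ES they summed to 42.3 and 37.7 CPM, with Hoxc6 at 12.1 and 10.7, Hoxc10 at 4.09 and 3.27 and Hoxd9 at 3.54 and 3.60 CPM. Neighbouring Hox transcripts overlap, so reads of Hoxa3 and Hoxb3 may belong in part to other members.

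**Figure D5:**
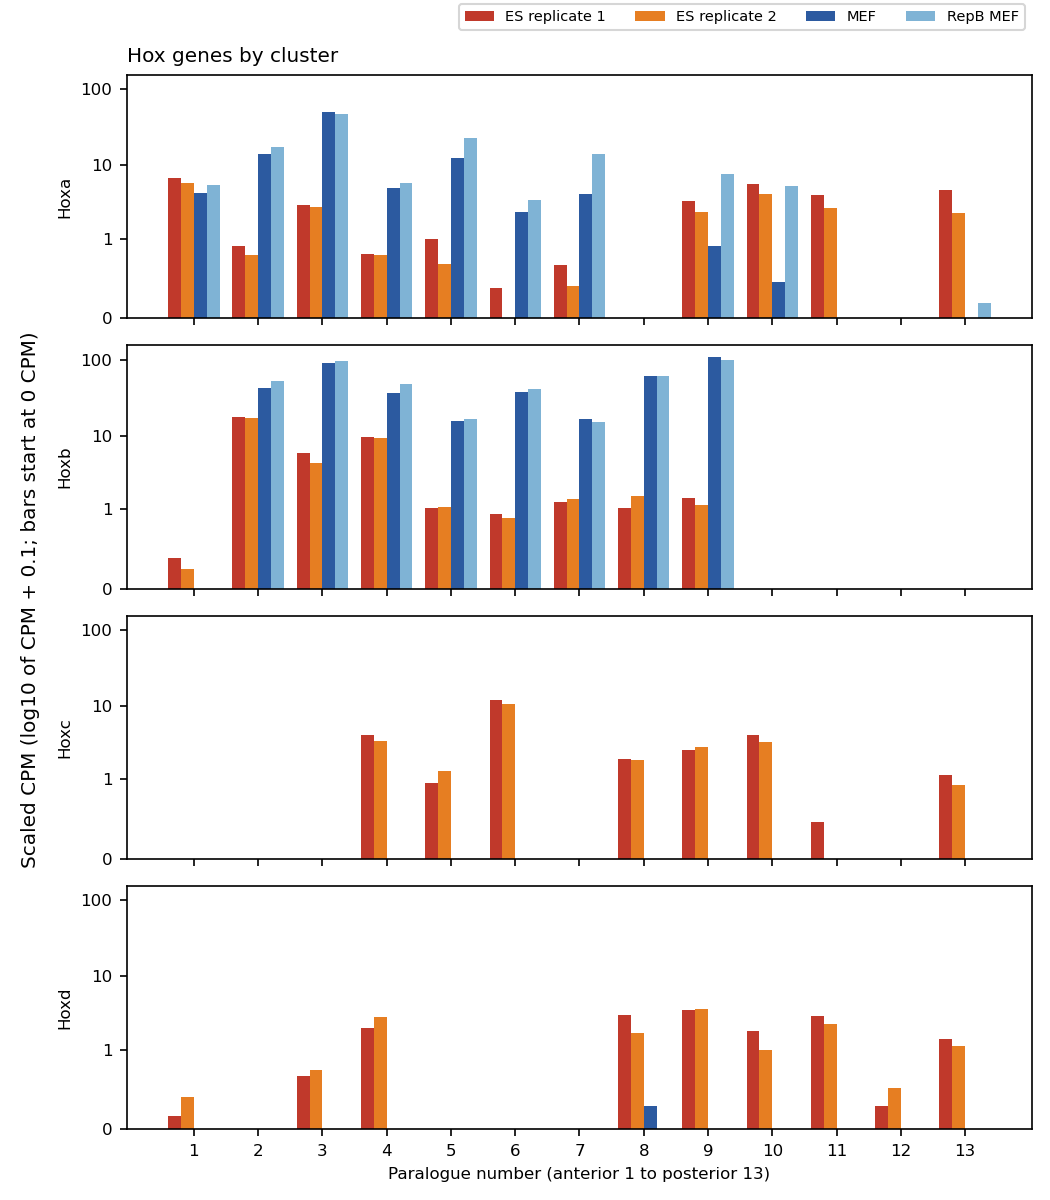
Levels of Hox genes of clusters A to D by paralogue number in ES replicates 1 and 2 (red and orange), MEF (dark blue) and RepB MEF (light blue), as bars from 0 on an axis of log10 of scaled CPM plus 0.1. MEF bars fill clusters A and B up to Hoxb9 and are missing from clusters C and D apart from 1 count of Hoxd8, while ES bars occur in all 4 clusters.

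Imprinted genes, expressed from 1 parental allele and many of them growth regulators of the embryo, were mostly higher in ES. Of the list 17 of 29 were higher in ES and 2 in MEF, with a median log2 difference of 2.20. H19, a long noncoding RNA, had 15666 and 15841 CPM in the ES libraries and 395 CPM in MEF (log2 fold change 5.32, SE 0.32, edgeR adjusted p = 1.21e-08) and 15.6 CPM in RepB MEF. Per kb of exon its level in ES, 6885 CPM per kb, was the highest of all genes called for ES. The neighbouring growth factor Igf2 had 1059.6 and 1061 CPM in the ES libraries and 0.0983 CPM in MEF, the latter being 1 count. Peg10 had 5226 and 5496 against 111 CPM, Peg3 3127 and 3185 against 142 CPM and Meg3 2452 and 3325 against 213 CPM, and Dlk1, which lies next to Meg3, was not called at 818 and 883 against 918 CPM. Zdbf2, second in the ranking by log2 fold change, had 182 and 177 CPM and 0 MEF counts. H19, Igf2, Peg3, Meg3 and Zdbf2 overlap other genes, so part of their reads may belong to those. Grb10, an inhibitor of insulin-type receptors, went the other way, at 13.3 and 11.5 CPM in the ES libraries and 929 CPM in MEF (log2 fold change -6.21, SE 0.16, edgeR adjusted p = 1.93e-14). Zim1, beside Peg3, had 1.54 and 1.88 against 13.1 CPM but 0 counts in RepB MEF, against which it was higher in ES.

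Genes of low oxygen and sugar use were in part higher in ES. Of the hypoxia and glycolysis list 11 of 19 were higher in ES and none in MEF, with a median log2 difference of 2.30. The glycolytic enzymes Aldoa, Eno1, Gapdh, Ldha, Pgam1, Pgk1 and Tpi1 were not called. The glucose transporter Slc2a1 had 1194 and 1351 CPM in the ES libraries and 97.4 CPM in MEF (log2 fold change 3.71, SE 0.18, edgeR adjusted p = 1.78e-10), and its relative Slc2a3 485 and 498 against 0.688 CPM. Hexokinase 2 (Hk2), the first step of glycolysis, had 319.7 and 385 against 37.8 CPM, and the vessel growth factor Vegfa 349.9 and 403 against 76.2 CPM. Hif3a, one of the oxygen-regulated factors, ranked among the 12 largest differences with 154 and 140.2 CPM and 0 MEF counts. These 5 genes were called against both MEF libraries. ACGTG, the core that hypoxia-inducible factors bind and that CACGTG E-boxes also contain, was searched on both strands of the same 250-base windows. It was present in 8 of 10 matched genes called, and in 4 of 7 not called, against 24.1% of matched tested genes. By promoter, it was in 16.6% of all of them. The windows of Slc2a1, Hk2 and Egln3 lie at chr4:119108495-119108744 (plus strand), chr6:82774455-82774704 (minus strand) and chr12:54203875-54204124 (minus strand) (RefSeq, GRCm38.p6), with each match in capitals and CACGT where it lies on the other strand; Egln3 was chosen for its match after its value was seen.
Slc2a1: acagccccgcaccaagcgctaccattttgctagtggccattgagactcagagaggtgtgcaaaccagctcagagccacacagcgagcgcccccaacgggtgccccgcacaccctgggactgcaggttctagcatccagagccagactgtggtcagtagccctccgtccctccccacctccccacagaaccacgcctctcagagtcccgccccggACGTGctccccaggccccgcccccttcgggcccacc
Hk2: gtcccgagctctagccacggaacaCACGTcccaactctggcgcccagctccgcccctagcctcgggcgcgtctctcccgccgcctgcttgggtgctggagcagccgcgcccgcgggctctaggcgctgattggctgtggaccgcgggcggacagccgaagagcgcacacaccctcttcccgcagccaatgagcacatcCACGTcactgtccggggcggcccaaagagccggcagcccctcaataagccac
Egln3: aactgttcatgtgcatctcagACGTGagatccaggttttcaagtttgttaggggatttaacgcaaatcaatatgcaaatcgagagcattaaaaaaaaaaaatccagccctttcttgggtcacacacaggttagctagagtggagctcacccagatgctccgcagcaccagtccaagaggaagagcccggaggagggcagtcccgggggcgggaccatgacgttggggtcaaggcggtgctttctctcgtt
Egln3, an oxygen-sensing hydroxylase, had 68.4 and 69.1 against 3.05 CPM. Whether any factor bound these sites was not measured.

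Proliferation genes leaned to MEF as a list. Their summed level was 3111 and 3149 CPM in ES, 6117.5 CPM in MEF and 5593 CPM in RepB MEF, with a median log2 difference of -0.64. None of 28 proliferation genes was higher in ES and 3 were higher in MEF, the replication genes Mcm6 (102 and 99.2 against 512 CPM), Tk1 (22.2 and 22.7 against 98.8 CPM) and Tyms (11.9 and 9.49 against 64.4 CPM). Mcm6 lost its call against the 360.3 CPM of RepB MEF, while Tk1 and Tyms were called there too. Mki67 (459.8 and 452 against 531 CPM), Top2a (383 and 363 against 379.9 CPM) and Ccnb1 (15.3 and 14.1 against 11.8 CPM) were not called. The tumour suppressor locus Cdkn2a was higher in MEF, at 51.4 and 64.1 CPM in the ES libraries and 360.1 CPM in MEF (log2 fold change -2.65, SE 0.16, edgeR adjusted p = 2.27e-10). Cdkn1a (p21) had 406 and 422 against 78.6 CPM and Ccng1 411 and 363 against 71.2 CPM, both calls being lost against the 231 and 159 CPM of RepB MEF. The immediate early genes Egr1 (58.2 and 59.4 against 375 CPM), Egr2 (0.996 and 1.06 against 24.7 CPM) and Myc (47.6 and 51.6 against 212 CPM) were called for wild-type MEF only, with 40.8, 1.5 and 118 CPM in RepB MEF. Fos and Jun were not called.

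Signals to other cells differed by family. Of cytokines and chemokines 8 of 15 were higher in MEF and 2 in ES, and 4 of those 8 were also called higher in RepB MEF. Il1rl1, the receptor of interleukin 33, had 0.149 and 0.736 against 141 CPM (log2 fold change -8.53, SE 0.48, edgeR adjusted p = 1.68e-13), Csf1, the macrophage growth factor, 143 and 147 against 626 CPM and Cxcl1 0.548 and 0.327 against 24.4 CPM. Il1rn, a blocker of interleukin 1, was among the 12 largest differences at 0.598 and 0.0818 against 296 CPM. Cxcl12 (327 and 318 against 1613 CPM) and Ccl2 (3.59 and 2.86 against 20.9 CPM) lost their calls against RepB MEF, at 861 and 1.90 CPM. Il6 was at 0 throughout. Of growth factor ligands and antagonists 16 of 42 were higher in ES and 7 in MEF. Bmp7 had 57.9 and 64.7 against 0 CPM, the Wnt antagonists Dkk2 and Sfrp2 48.8 and 54.2 against 0.295 CPM and 134 and 130.2 against 6.10 CPM. The BMP antagonist Grem1 had 1.44 and 1.64 against 134 CPM (log2 fold change -6.46, SE 0.23, edgeR adjusted p = 8.90e-14), Tgfb3 107 and 107 against 778 CPM and Wnt5b 2.84 and 2.78 against 62.6 CPM. Interferon response genes were higher in ES for 10 of 26 tested, with Bst2 at 85.0 and 92.9 against 6.10 CPM, Irf7 at 11.7 and 12.9 against 1.18 CPM and Isg15 at 12.7 and 11.9 against 1.28 CPM. Ifit3 was higher in wild-type MEF (4.14 and 5.40 against 19.7 CPM) but was not called against the 10.0 CPM of RepB MEF.

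Chromatin genes were largely shared. Xist had 878 and 871 CPM in the ES libraries and 483 CPM in MEF (log2 fold change 0.86, SE 0.20, edgeR adjusted p = 0.00144) and was not called. Its antisense gene Tsix overlaps it, and the strand setting of the counting is not stated, so the Tsix value (1.05 and 1.31 against 0 CPM) cannot be told apart from Xist reads. Of 30 Polycomb subunit genes 3 were higher in ES: Jarid2 (216 and 249.9 against 42.8 CPM), Cbx7 (46.5 and 61.5 against 7.77 CPM) and Pcgf5 (35.1 and 34.9 against 5.01 CPM). The core subunits Ezh2 (77.7 and 79.8 against 85.6 CPM), Eed (38.6 and 51.3 against 30.6 CPM), Suz12 (72.3 and 60.5 against 31.3 CPM) and Rnf2 (100.1 and 92.7 against 44.9 CPM) were not called. The de novo DNA methyltransferase Dnmt3a had 386 and 439 against 74.0 CPM and its cofactor Dnmt3l 7.47 and 9.08 against 0 CPM. Dnmt1, at 380.2 and 448 against 907 CPM, and Dnmt3b, at 26.8 and 32.4 against 7.67 CPM, were not called. No housekeeping gene of 20 was called, and their median log2 difference was -0.28.

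The 12 largest differences on the ES side, beside those described, were in Rps4l, Camsap3, Car4, Mab21l2, Bex1 and Nxf7. They ranged from 123 and 119.6 CPM for Nxf7 to 161 and 196 for Rps4l, all with 0 MEF counts. Mab21l2 lies within Lrba and Rps4l within Tmtc1, and Rps4l has close copies among ribosomal protein genes. On the MEF side they were led, after Lect1, by Gm2115 (0.249 and 0 against 133 CPM), the secreted CCN proteins Wisp2 (0.399 and 0.327 against 289 CPM) and Nov (0.947 and 0.818 against 468 CPM) and the carbonyl reductase Cbr2 (0.548 and 0.491 against 352 CPM). For Wisp2 the ES libraries held 8 and 4 counts, and MEF was 778 times, with a 95% counting interval of 445 to 1507, as high. Tnfrsf11b, a decoy receptor that limits bone resorption, had 0.548 and 0.491 against 220.3 CPM. Serpina3h (0.0498 and 0.0818 against 32.6 CPM) belongs to a family of close copies, and the X-linked receptor Adgrg2 had 0.149 and 0.327 against 47.7 CPM. Genes called higher in MEF took 9.78% of MEF counts and 1.49% and 1.51% of ES counts, and genes called higher in ES took 11.5% and 11.6% of ES counts and 0.680% of MEF counts. The part of feeder fibroblasts carried over into the ES cultures was not tested.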

How the data were processed

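Poly(A) RNA was measured by RNA-seq in 2 wild-type ES libraries and 1 wild-type MEF library. The deposited tables give raw counts per gene made by the authors, for all reads and separately by allele, in the column layout of featureCounts on mouse build mm9, per the file headers. Per the submitters' processing notes, the RNA-seq and other assays of the series used TopHat, Novoalign, cutadapt, SAMtools, featureCounts, bedtools, Juicer and HOMER. Tool versions, the strand setting and the treatment of reads with several matches are not given in the sources used here. The gene length column of the deposited tables was used for values per kb.

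Counts of all reads were fitted with edgeR 4.0.16 in R 4.3.3: genes passed filterByExpr at a minimum count of 10 and a minimum total of 15, libraries were scaled by TMM, and the quasi-likelihood test took the contrast wild-type ES minus wild-type MEF. All 8 RNA-seq libraries in 5 groups entered the fit, since the MEF groups hold 1 library each and the spread comes from 3 residual degrees of freedom among the ES libraries (biological coefficient of variation 9.53%). P-values were adjusted by Benjamini-Hochberg over all tested genes. SE is a Wald error from the fitted weights. Against 0 counts, folds are lower bounds from a floor of 3 counts per library, and ratios to 1 to 3 counts carry exact 95% counting intervals, both covering counting error only. On data simulated for this comparison, 100% of 200 genes with an 8-fold difference and 0% of 200 with a 2-fold difference were called. The 4-fold minimum fixed the 2-fold result beforehand. Changed genes were drawn only from genes well above the 1 CPM minimum, and every library, MEF included, was given the same spread. The simulation therefore tested neither the spread of MEF nor calls near 1 CPM.

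Named genes were the 12 called genes with the largest log2 fold change in each direction with at least 20 CPM, the defining genes of 40 lists, up to 4 called genes per list and direction with the highest CPM, and Xist; 1 gene that this rule named is not reported here, and the counts include it. The members and lists were chosen with earlier results of these data known. Cdh5, Cldn3, Loxl2 and Mdk also overlap other genes, which makes their counts uncertain, and further named genes may do so. Of 805 list symbols 803 were matched, some through RefSeq synonyms. The 17 alternatives covered normalization, filters, thresholds, DESeq2 1.42.0, the libraries used and a replicate block.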

Additional observations from a re-analysis of the deposited data

How the results depend on the processing

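With 17 alternatives, genes higher in ES ranged from 1951 to 3597 and genes higher in MEF from 352 to 2129. A fold minimum of 2 gave 3597 and 2129, and a minimum of 8 gave 1951 and 352. All other alternatives kept both counts within 1.5 times: DESeq2 gave 2404 and 714, edgeR on the 3 wild-type libraries 2418 and 725, and no scaling 2627 and 579, with the median of all genes shifted by 0.25 on the log2 scale. Without ES replicate 1 or 2 the counts were 2435 and 2445 for ES and 753 and 726 for MEF, each fit resting on 1 library per cell type. The replicate block gave 2433 and 752; wild-type ES and MEF share only replicate number 1, so the numbers do not pair these samples. With RepB MEF as the comparator, 2766 and 701 genes were called, 12 calls turned direction, and 6 of the named genes reported here reversed on the log2 scale: Ccl2 (0.78), Cnn1 (3.41), Egr1 (0.53), Hoxa10 (-0.10), Thy1 (8.31) and Zim1 (8.0). In no other alternative did a named gene reported here reverse. Depth limits values under about 0.295 CPM in MEF, the level of 3 counts.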

Other observations

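Genes on the X chromosome were called for ES more often than those of any autosome. Of 579 tested X-linked genes 153 (26.4%) were higher in ES, against 11.9% on chromosome 19, the lowest, and 18.4% on chromosome 6, the highest autosome. The median log2 difference of X-linked genes was 0.78, and 2.94% were higher in MEF. Among the leading X-linked genes were Bex1 (128 and 141 against 0 CPM), Rhox6 (115 and 104 against 0 CPM), Rhox9 (124 and 128 against 0 CPM) and Nxf7 (123 and 119.6 against 0 CPM). The median share of 129 reads on the X was 5.14% and 6.08% in ES and 0.176% in MEF. No difference between chromosomes was tested.

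Grouped by the stem of their symbols after values were seen, keratins (Krt) were higher in ES in 9 of 17 tested genes and bone morphogenetic proteins (Bmp) in 6 of 10. The clustered protocadherins of the beta group (Pcdhb), neighbouring surface receptors with close copies, were higher in MEF in 8 of 20 and higher in ES in 2. Per kb of exon, Igfbp2, a carrier of insulin-like growth factors, had the highest MEF level among genes called for MEF, 3398 CPM per kb, against 431 in ES. Apoe, a lipid carrier, had 472 CPM per kb in ES and 5.70 in MEF, and the heparin-binding growth factor Mdk 335 and 0.280. Both were chosen after their values were seen.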
